A study of Mus musculus with 22 samples.

Results

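Mice whose ventricular cardiomyocytes had lost SAP97 were set against controls that carry the same floxed gene without Cre, 3 mice a side, which makes 6 of the 22 mice of the series. SAP97 KO mice carry MHC-Cre together with SAP97 fl/fl, and SAP97 control mice carry SAP97 fl/fl alone, so the floxed allele is shared and Cre is not. All 6 were males on a mixed background, aged 10.7, 11.3 and 13 weeks in SAP97 KO and 10.6, 11.3 and 13 weeks in SAP97 control, and RNA of isolated ventricular cardiomyocytes was sequenced separately for each mouse. Cre is driven by the alpha-myosin heavy chain promoter, which is active in cardiomyocytes, so other cell types of the heart keep the exon between the loxP sites, which is the first. Loss of SAP97 and presence of Cre go together in these 6 mice and cannot be told apart by their comparison alone. The labels and the methods give the controls as Cre-negative, while a listing of samples in the paper writes them as carrying Cre.

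SAP97, encoded by Dlg1, is a scaffold of the MAGUK family, proteins that hold channels and receptors in place at the plasma membrane through PDZ domains. In cardiomyocytes it lies at the lateral membrane and the intercalated disc, where it binds several ion channels, and it pairs with CASK, another MAGUK. A messenger comparison reads the amount of RNA of each gene and says nothing about where the proteins sit.

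The deposited counts give the number of read pairs assigned to each gene, and they summed to between 28697320 and 34192649 per library. Levels are given as CPM, counts per 1000000 counts of the library after TMM scaling. Of 47069 genes listed, 14722 had enough counts to be tested with the quasi-likelihood test of edgeR, and a gene is called at a Benjamini-Hochberg adjusted p below 0.01. Cardiomyocyte markers far exceeded the markers of other cell types in every library. They summed to 88566 to 130893 CPM in SAP97 KO and to 100499 to 109160 CPM in SAP97 control. Markers of lymphocytes and adipocytes stayed under 1 CPM in sum. Genes of mitochondrial DNA held 42.1%, 39.7% and 37.2% of the counts in SAP97 KO, against 40.6%, 36.8% and 30.2% in SAP97 control. SAP97 KO replicate 1 stood apart in its atrial genes: the atrial light chain gene Myl7 was at 0.674 CPM there and at 14.8 to 23.8 CPM in the other 5 libraries, and Sln, which encodes an atrial regulator of the calcium pump, was at 0.0642 CPM against 3.90 to 6.19 CPM. The share of read pairs outside annotated genes was 5.88%, 9.06% and 11.9% in SAP97 KO, against 4.10%, 10.9% and 3.06% in SAP97 control. These shares overlapped between the groups, and the first axis of a multidimensional scaling, which held 50.7% of the variance, placed SAP97 control replicate 2 beside SAP97 KO replicates 2 and 3 at scores of -0.98, -0.85 and -1.05.

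In SAP97 KO cardiomyocytes Dlg1 fell and Ndnf rose. In all, 3 genes were called, 0.0204% of those tested, with 0.00679% called higher and 0.0136% called lower. Dlg1 itself, the targeted gene, had 418, 312 and 404 read pairs in SAP97 KO, against 1763, 2036 and 1827 in SAP97 control. In CPM these were 13.4, 11.2 and 11.9 in SAP97 KO, against 54.2, 67.0 and 57.7 in SAP97 control, which gives a log2 fold change of -2.29 (standard error 0.14, edgeR adjusted p = 9.33e-04). The groups lay far apart relative to their spread, and the remaining reads were alike in the 3 knockouts. Counts are per gene, so reads of the floxed exon were not analysed here. Among 26 other tested genes within 1000000 bases of Dlg1 on chromosome 16, log2 fold changes ran from -0.61 to 1.23 and none was called, the smallest adjusted p being 0.610.

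Ndnf encodes a secreted glycoprotein first described as a neurotrophic factor and also made by muscle and endothelium. Its level was 29.8, 30.2 and 27.5 CPM in SAP97 KO, against 8.45, 8.52 and 8.37 CPM in SAP97 control. The libraries of each group agreed closely, and SAP97 KO had 3.45 times the control mean, with a log2 fold change of 1.79 (standard error 0.13, edgeR adjusted p = 0.00131). Ndnf lies on chromosome 6 of GRCm38 from 65671590 to 65712326.

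**Figure D1:**
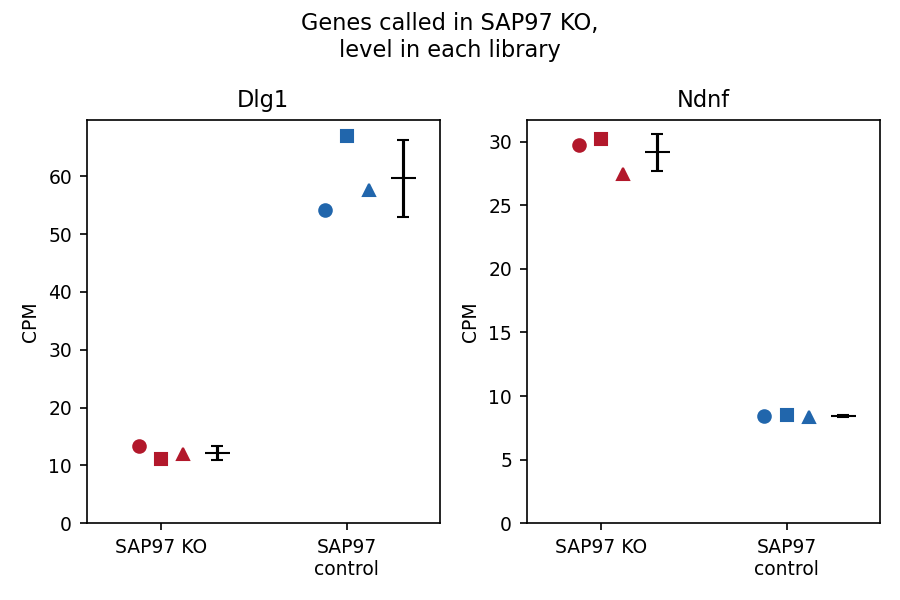
Level in CPM of Dlg1 and Ndnf in each library, SAP97 KO in red on the left and SAP97 control in blue on the right of each panel, with circles, squares and triangles for replicates 1, 2 and 3 and a black bar for the mean and SD of 3 libraries. For both genes the 3 SAP97 KO libraries stand clear of the 3 SAP97 control libraries, with Dlg1 at 11.2 to 13.4 against 54.2 to 67.0 CPM.

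The calls rested on small groups. Dlg1 was no longer called without SAP97 KO replicate 3 (adjusted p = 0.0153). Ndnf was not called when SAP97 KO replicate 1 or 3 or any 1 of the controls was left out. Over 20 alternative settings its log2 fold change stayed between 1.65 and 1.81, but it was called in 11 of them. Among the other 9 were age as a covariate (edgeR adjusted p = 0.0112), the replicate number as a block (0.0238) and the fit of all 21 libraries (0.0896). Same-numbered mice of the groups were of like age, and with that block Dlg1 was not called either (0.0204). DESeq2 on the same counts called 46 genes, 0.259% of those it tested, and the fit of all 21 libraries called 6, 0.0366%.

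The genes next in rank were not called, but their libraries separated by group. Among all genes tested, 4.69% were higher and 3.28% lower in SAP97 KO at an unadjusted p under 0.05 (7.97% in both directions), and for 7.06% every SAP97 KO library lay above every SAP97 control library and for 5.81% below, 12.9% in all. The genes described here come from the 15 of lowest p in each direction with a mean of at least 1 CPM, Dlg1 and Ndnf included, so their separation follows from how they were chosen. DESeq2 called 29 of these 30 genes.

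Next to Ndnf and Fam198b, the genes of lowest p on the higher side were Bcl2, Phlda3 and Cdkn1a. Phlda3, which restrains the kinase Akt and is a target of p53, was at 7.89, 6.93 and 4.92 CPM in SAP97 KO, against 1.60, 1.05 and 2.18 CPM in SAP97 control. Its log2 fold change was 2.03 (standard error 0.30, edgeR adjusted p = 0.148). Cdkn1a, which encodes the cell-cycle inhibitor p21, was at 5.61, 5.75 and 8.75 CPM in SAP97 KO, against 2.21, 2.47 and 1.86 CPM in SAP97 control. The knockouts thus held 3.07 times the control mean of p21 messenger, with no overlap between the groups. Bcl2, the founding inhibitor of apoptosis, was at 10.9, 9.61 and 9.72 CPM in SAP97 KO, against 3.54, 4.38 and 4.77 CPM in SAP97 control. Ccnd2, the gene of cyclin D2, was expressed at a higher level than these, at 158, 134 and 130 CPM in SAP97 KO, against 78.6, 82.0 and 71.5 CPM in SAP97 control. Of these 4 genes, Phlda3 had the largest log2 fold change and Ccnd2, at 0.86, the smallest.

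Nppa, the gene of atrial natriuretic peptide, which ventricles express before birth and again under load, was at 68.7, 44.2 and 23.5 CPM in SAP97 KO, against 8.48, 11.2 and 11.8 CPM in SAP97 control. Its spread was wide among the knockouts, and its log2 fold change was 2.12 (standard error 0.34, edgeR adjusted p = 0.172). Atrial markers, 6 genes including Nppa, summed to 71.1 to 85.9 CPM in SAP97 KO, against 45.0 to 67.2 CPM in SAP97 control. Nppa made up 68.7 of the 71.1 CPM in SAP97 KO replicate 1, so the sum is not separate from Nppa. Of the 5 tested, 4 had a negative log2 fold change, and the part of atrial markers in the Nppa result was not tested. The library with the highest Nppa, SAP97 KO replicate 1, was the library with the least Myl7 and Sln. The remaining genes on this side were Fam198b, the trafficking GTPase gene Rab31, the endocytic adaptor gene Epn3, the glutamine transporter gene Slc38a1, the procollagen processing enhancers Pcolce and Pcolce2, Klhdc7a, 6430548M08Rik and the noncoding Gm13481. Their log2 fold changes ran from 0.98 for Pcolce2 to 1.86 for Klhdc7a. Fam198b had the lowest p of them, at 25.2, 20.3 and 16.5 CPM in SAP97 KO, against 7.53, 6.71 and 8.24 CPM in SAP97 control.

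The lower side held Dmd, Ctnna3, Kcnj3 and Exoc2. Dmd, which encodes dystrophin, was at 192, 170 and 199 CPM in SAP97 KO, against 294, 404 and 322 CPM in SAP97 control. Ctnna3, the gene of alpha-T-catenin at the intercalated disc, was at 32.0, 31.8 and 35.5 CPM in SAP97 KO, against 47.1, 66.3 and 60.2 CPM in SAP97 control. For both genes the SAP97 KO libraries lay closer together than the controls did. Kcnj3, which encodes the Kir3.1 subunit of the acetylcholine-activated potassium channel, was at 38.8, 40.1 and 34.9 CPM in SAP97 KO, against 61.9, 58.4 and 63.4 CPM in SAP97 control. Exoc2, a subunit of the exocyst that tethers secretory vesicles to the plasma membrane, was at 10.3, 9.11 and 10.4 CPM in SAP97 KO, against 18.6, 17.5 and 18.6 CPM in SAP97 control. Their log2 fold changes, -0.86 for Dmd, -0.81 for Ctnna3, -0.69 for Kcnj3 and -0.88 for Exoc2, were close to each other and much smaller than that of Dlg1.

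G0s2, an inhibitor of fat breakdown by adipose triglyceride lipase, was at 21.4, 26.7 and 31.2 CPM in SAP97 KO, against 81.1, 105 and 44.2 CPM in SAP97 control. The controls spread by more than the knockouts, with SAP97 control replicate 3 nearest to them. Tesc, Maob, Cmbl, Efnb3, Ppp2r3a, Acot1 and Ap4s1 had log2 fold changes from -1.10 for Acot1 to -0.67 for Ppp2r3a. The log2 fold change of the amylase gene Amy1 was -1.71 (standard error 0.22, edgeR adjusted p = 0.0905). Amy1 and Acot1 have close paralogs, and reads shared with these could have been left uncounted or split.

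**Figure D2:**
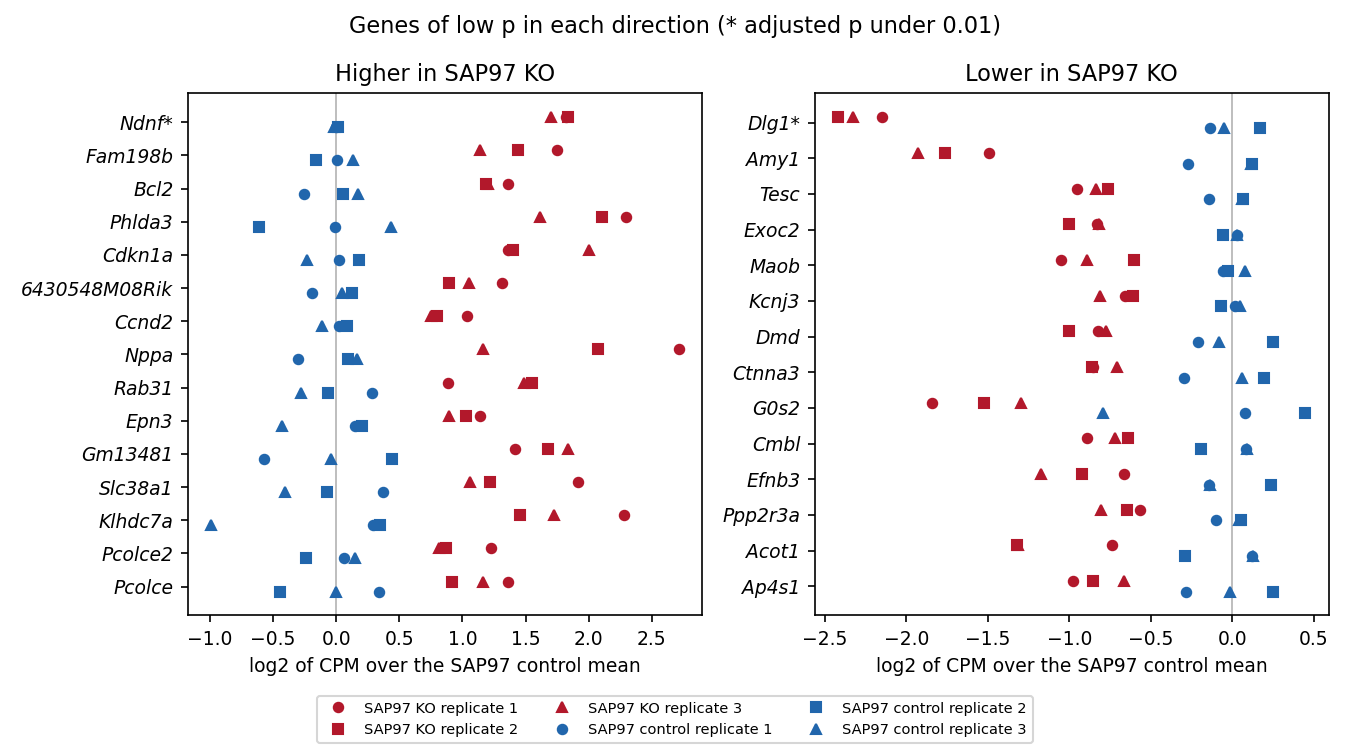
Log2 of the CPM of each library over the mean of the SAP97 control libraries, for 29 genes of lowest p, 15 on the higher and 14 on the lower side, with SAP97 KO libraries in red drawn just above SAP97 control libraries in blue, symbols for replicates, and a star at genes called. In each of the 29 genes the 3 SAP97 KO libraries lie on 1 side of all 3 SAP97 control libraries, as the choice of genes favours.

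The same genes were read in other mice of the series that carry MHC-Cre. The CASK line has 6 such libraries, 3 of CASK KO (MHC-Cre with CASK fl/fl) and 3 of CASK control (MHC-Cre alone), and 5 wild-type mice serve as MDX control, so this comparison shares no library with the SAP97 mice. The CASK line was on a mixed background at 10.1 to 12.7 weeks, and the wild-type mice were on C57Bl/6 backgrounds, 1 of them by backcross of a mixed strain, at 10.9 to 14.7 weeks. The paper states that samples were sequenced in more than a single round. It gives a batch effect as the likely reason for variation among the MDX controls, which are the wild type here. Which library belongs to which round is not given in the sources used here. Levels here come from 1 scaling of 21 libraries. The remaining library of the series, from a dystrophin-deficient mouse, was left out for its low depth. Of the 15 genes on the higher side in SAP97 KO, 13 were called higher in the 6 MHC-Cre libraries of the CASK line than in wild type by edgeR, where 1.15% of 16409 genes were. Of 14 genes on the lower side, Dlg1 left out, 9 were called lower, where 0.798% of all genes were. No library of the CASK line overlapped a wild-type library for 10 of the 15 and 7 of the 14 genes, all on the same side as in SAP97 KO, against 1.87% and 1.4% of all genes. CASK KO and CASK control, pooled here, differed widely for some of these genes. Nppa averaged 29.8 ± 6.38 CPM in CASK KO and 316 ± 184 CPM in CASK control, and Dmd 171 ± 28.9 CPM in CASK KO and 46.6 ± 4.55 CPM in CASK control (SD, n = 3 each).

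Ndnf was at 19.9 to 38.0 CPM in the 6 MHC-Cre libraries of the CASK line, against 2.66 to 8.99 CPM in the 5 wild-type libraries, a log2 fold change of 2.005 (edgeR adjusted p = 7.49e-05). Phlda3 was at 7.04 to 17.7 CPM in those MHC-Cre libraries, against 2.24 to 3.00 CPM in wild type, and Exoc2 was at 6.75 to 11.5 CPM in those MHC-Cre libraries, against 15.5 to 17.5 CPM in wild type. Each of these 3 genes divided the mice with MHC-Cre from those without it in both sets, with no overlap. In the SAP97 set this follows from how the genes were chosen, and the 3 are among the 10 and 7 genes without overlap in the CASK line. Tesc, G0s2, Cmbl, Acot1 and Ap4s1 on the lower side and Ccnd2 and Gm13481 on the higher side were not called in the CASK line.

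Dlg1 did not follow this division. Its mean was 11.9 ± 1.30 CPM in SAP97 KO (SD, n = 3), 53.2 ± 1.63 CPM in CASK KO and 52.5 ± 3.40 CPM in CASK control (SD, n = 3 each), 59.6 ± 5.37 CPM in SAP97 control (SD, n = 3) and 51.4 ± 5.79 CPM in wild type (SD, n = 5). Against CASK control, which carries Cre and intact SAP97, the Dlg1 log2 fold change in SAP97 KO was -2.14 (standard error 0.14, edgeR adjusted p = 4.4e-08), one of 38 genes called in that comparison (0.232%). The log2 fold change of Ndnf in the same comparison was -0.06 (standard error 0.34, adjusted p = 0.942). Phlda3 was called lower in SAP97 KO than in CASK control, with a log2 fold change of -1.35 (adjusted p = 0.00601), so SAP97 KO stood between SAP97 control and CASK control for this gene. Dmd and Ctnna3 were called higher in SAP97 KO than in CASK control, with log2 fold changes of 1.97 and 1.90 by edgeR, and so lay between them as well. Mouse line, strain and Cre differ together across these sets and cannot be told apart.

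**Figure D3:**
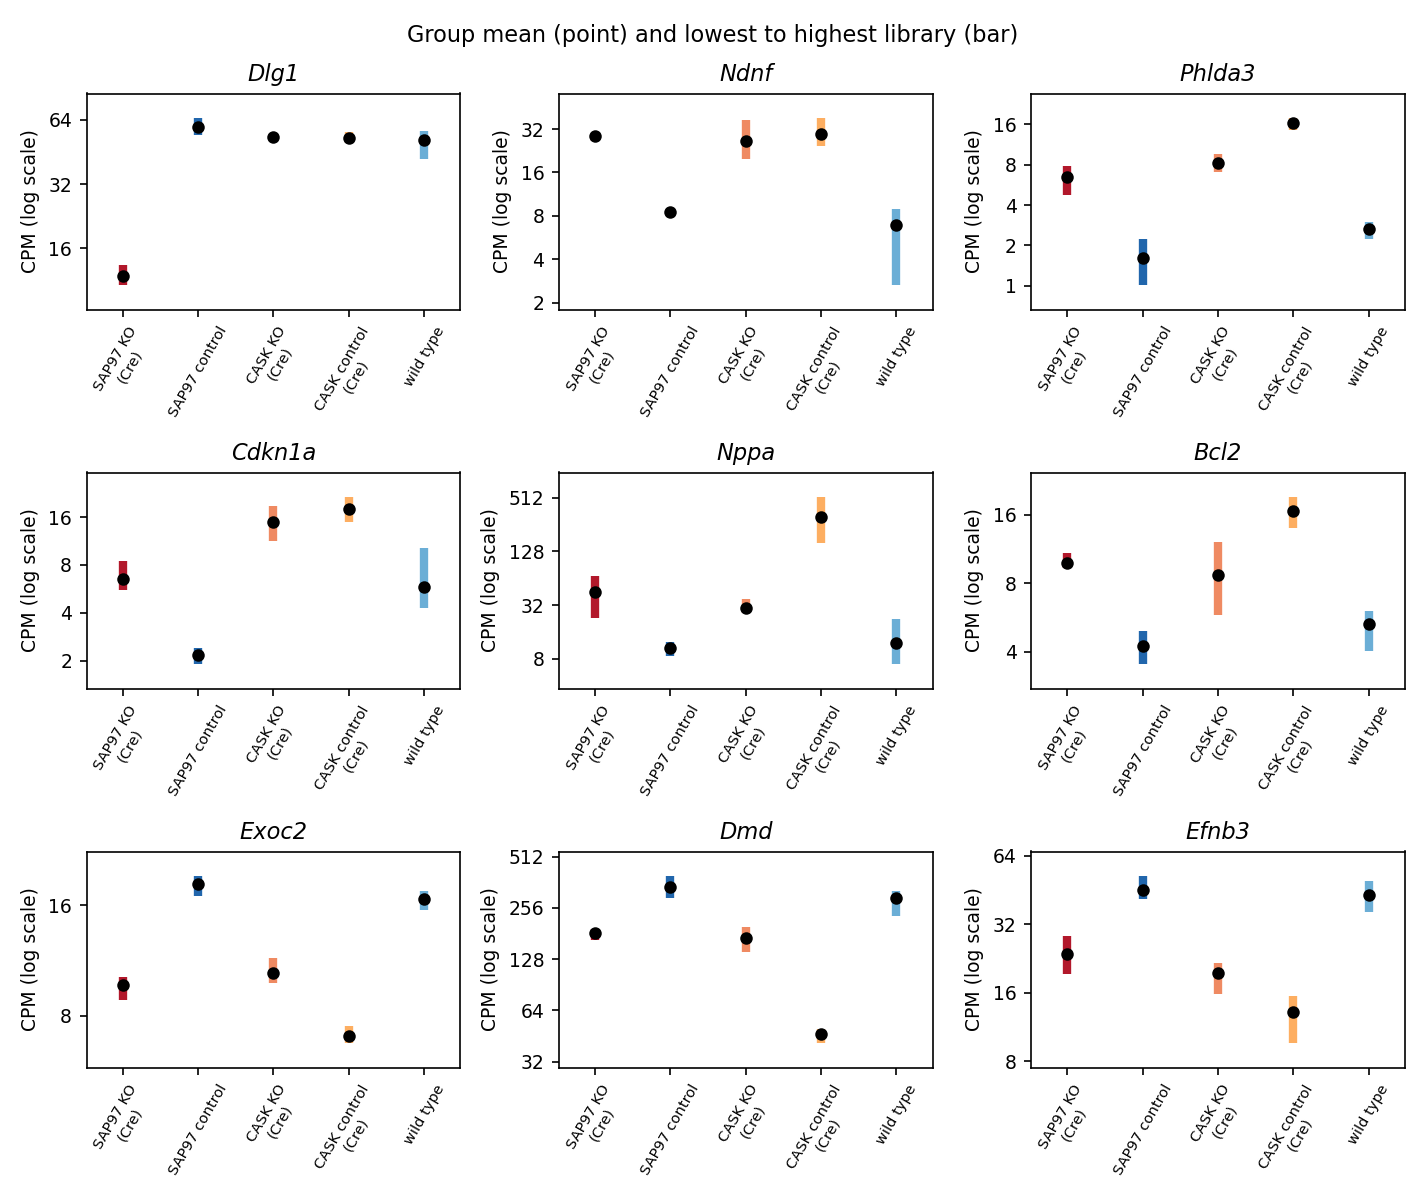
Level in CPM, on a log scale, of 9 named genes in SAP97 KO, SAP97 control, CASK KO, CASK control and wild type (MDX control), with the group mean as a black point and a bar from the lowest to the highest library, n = 3, 3, 3, 3 and 5. Dlg1 is low in SAP97 KO alone of these groups, while Ndnf, Phlda3 and Exoc2 set the 3 groups with MHC-Cre apart from SAP97 control and wild type.

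Targets of p53, a transcription factor activated by DNA damage, were listed as a group because Phlda3 and Cdkn1a belong to them. Of 23 tested members, 7 were higher and 0 lower in SAP97 KO at an unadjusted p under 0.05, against 4.69% and 3.28% of all genes, and 10 were higher in every SAP97 KO library than in every SAP97 control library, against 7.06%. The list was chosen with those genes in view and is no independent evidence of its direction. Its median log2 fold change was 0.31, beside 0.03 for all genes, and 0.15 or 0.17 when SAP97 control replicate 2 or 3 was left out. After Phlda3 and Cdkn1a came Trp53inp1, which promotes p53 activity, at 14.4, 16.5 and 19.1 CPM in SAP97 KO, against 13.2, 7.67 and 9.79 CPM in SAP97 control. Eda2r, a receptor of the tumour necrosis factor family, was at 4.49, 4.65 and 3.53 CPM in SAP97 KO, against 2.67, 1.18 and 2.53 CPM in SAP97 control. The stress cytokine gene Gdf15, the exonuclease gene Aen and the death receptor gene Tnfrsf10b completed the 7, at log2 fold changes of 0.78, 0.35 and 0.82. Classical targets did not all separate: Mdm2, the negative regulator of p53, was at 37.7, 43.7 and 37.0 CPM in SAP97 KO, against 39.9, 36.1 and 38.1 CPM in SAP97 control, and the log2 fold change of Bax was 0.13. No member apart from those 7 passed an unadjusted p of 0.05, and none of the 23 was called.

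A p53 response element, 2 adjacent decamers with at most 1 mismatch in all, was searched for on the given strand of the 250 bases before each RefSeq start site of the GRCm38.p6 table, the element being palindromic in form. It was found for 2 of the 18 listed genes with a promoter in that table. Of all 32851 promoters, 0.0761% held it. The first share counts genes and the second counts promoters, of which a gene can have several, so they were not compared. The elements are shown because 1 of these genes separated the groups and the other did not. Capitals mark the element, on chr17:29090888-29090978 of the plus strand for Cdkn1a and on chr11:40755422-40755521 of the minus strand for Ccng1.
Cdkn1a: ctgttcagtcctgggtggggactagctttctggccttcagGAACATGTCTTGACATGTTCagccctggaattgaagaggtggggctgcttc
Ccng1: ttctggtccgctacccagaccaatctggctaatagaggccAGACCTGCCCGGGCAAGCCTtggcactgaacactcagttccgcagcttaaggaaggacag
Ccng1, the gene of cyclin G1, was at 764, 956 and 741 CPM in SAP97 KO, against 829, 906 and 1075 CPM in SAP97 control, and these ranges overlapped. A match is a description of the letters and not of binding.

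The fetal genes that hypertrophy brings back were divided. Of 15 tested members, 5 were higher and 0 lower at an unadjusted p under 0.05, against 4.69% and 3.28% of all genes. The list median of 0.37 was not steady: it was 0.06 or 0.21 when SAP97 control replicate 1 or 3 was left out, 0.19 when SAP97 KO replicate 1 was, and 0.14 with the share of reads outside genes as a covariate. Skeletal actin, Acta1, was at 948, 688 and 411 CPM in SAP97 KO, against 179, 354 and 203 CPM in SAP97 control. Ankrd1, a stretch-responsive ankyrin repeat gene, was at 1798, 1501 and 1056 CPM in SAP97 KO, against 753, 701 and 945 CPM in SAP97 control. Nppa, Mybpc2 and Gdf15 were the other 3, and SAP97 KO replicate 1 was highest of all 6 libraries for Nppa, Acta1, Ankrd1 and Mybpc2. Nppb, the gene of brain natriuretic peptide, overlapped at 343, 284 and 194 CPM in SAP97 KO, against 113, 188 and 334 CPM in SAP97 control, as did Myh7, the slow myosin heavy chain, with a log2 fold change of 0.41 (standard error 0.34).

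Other scaffolds of the MAGUK family did not mirror the drop in Dlg1. Of 15 tested members, only the targeted Dlg1 was lower and only Magi1 higher at an unadjusted p under 0.05, against 3.28% and 4.69% of all genes. Magi1 was at 10.9, 10.4 and 12.2 CPM in SAP97 KO, against 7.41, 8.23 and 7.77 CPM in SAP97 control, a log2 fold change of 0.52 (standard error 0.15, edgeR adjusted p = 0.538). Dlg3, which encodes SAP102, and Dlg5 had 0.76 and 0.85, with overlapping libraries. Cask was at 7.70, 8.29 and 8.57 CPM in SAP97 KO, against 7.65, 8.56 and 7.86 CPM in SAP97 control. Its log2 fold change of 0.03 had a standard error of 0.15.

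Of 25 tested partners of SAP97 and CASK, 2 were higher and 1 lower at an unadjusted p under 0.05, against 4.69% and 3.28% of all genes. Sntb1, the gene of beta-1-syntrophin, an adaptor that joins channels to dystrophin, was at 7.12, 2.93 and 3.09 CPM in SAP97 KO, against 1.29, 0.856 and 0.379 CPM in SAP97 control. Its log2 fold change of 2.37 (standard error 0.49, edgeR adjusted p = 0.318) was the largest of the list. Caskin2, a CASK-interacting protein, was the other higher gene, at 0.45, and Kcnd2 the lower. In the dystrophin complex, Sntb1 and Nos1 were higher and Dmd and Lama2 lower at an unadjusted p under 0.05 among 17 tested genes, none of them called, against the same 4.69% and 3.28% of all genes. Nos1, the neuronal nitric oxide synthase, was at 1.89, 1.64 and 0.795 CPM in SAP97 KO, against 0.277, 0.757 and 0.253 CPM in SAP97 control. For Utrn, which encodes the dystrophin homologue utrophin, the log2 fold change was 0.18 (standard error 0.16).

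The channels that SAP97 is known to bind were read one by one. Of 8 tested, 5 had positive and 3 negative log2 fold changes, with a median of 0.13, and none was called. Kcnd2, the Kv4.2 subunit of the fast transient outward current, was at 32.3, 28.5 and 22.8 CPM in SAP97 KO, against 46.1, 45.2 and 40.4 CPM in SAP97 control, a log2 fold change of -0.66 (standard error 0.15, edgeR adjusted p = 0.405). Kcnd3, its Kv4.3 counterpart, overlapped at 17.3, 14.4 and 16.3 CPM in SAP97 KO, against 13.4, 23.3 and 13.4 CPM in SAP97 control. Kcna5, the Kv1.5 channel, was at 3.91, 2.001 and 2.41 CPM in SAP97 KO, against 4.83, 2.76 and 4.70 CPM in SAP97 control, and the inward rectifier genes Kcnj2 and Kcnj12 had log2 fold changes of 0.15 and 0.11 with standard errors of 0.23 and 0.17.

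Among channel genes beyond these, Kcnq1, which carries slow delayed rectifier current, was at 30.6, 26.1 and 26.9 CPM in SAP97 KO, against 18.9, 20.1 and 19.7 CPM in SAP97 control. Kcnv2, a silent modifier subunit, was at 6.93, 6.04 and 5.77 CPM in SAP97 KO, against 11.3, 12.4 and 9.22 CPM in SAP97 control. The groups were separate for both genes, with log2 fold changes of 0.51 and -0.81, and neither was called. Of 17 voltage-gated potassium channel genes tested, 2 lay higher and 2 lower without overlap, against 7.06% and 5.81% of all genes. Grk5, a kinase that desensitizes beta-adrenergic receptors, and the adenylyl cyclase gene Adcy5 had log2 fold changes of 1.01 and 0.49 without overlap between the groups. Of 25 beta-adrenergic signalling genes tested, 3 lay higher and 1 lower without overlap, beside the same shares of all genes, and none was called.

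Nuclear-encoded genes of the respiratory chain lay mostly on the lower side. Of 78 tested, 77 had a negative log2 fold change, 33 were lower at an unadjusted p under 0.05, against 3.28% of all genes, and 28 lay lower in every SAP97 KO than in every SAP97 control library, against 5.81%. The list median was -0.42. None was called. Cox7a1, a muscle isoform of a cytochrome oxidase subunit, was at 801, 1034 and 851 CPM in SAP97 KO, against 1556, 1170.0 and 1776 CPM in SAP97 control. Ndufa1, a complex I subunit, was at 83.1, 101 and 75.5 CPM in SAP97 KO, against 124, 115 and 153 CPM in SAP97 control. In both genes the closest libraries were SAP97 KO replicate 2 and SAP97 control replicate 2. The median deviation of the 78 genes from their mean over 6 libraries showed the same, at -0.37, 0.06 and -0.30 (log2) in SAP97 KO, against 0.20, 0.05 and 0.39 in SAP97 control. Single libraries moved the count of 33, and the count over all genes, 483 of 14722 here, moved too. The list count was 3, 15 and 60 when SAP97 KO replicate 3, 1 or 2 was left out, beside 230, 320 and 1022 of all genes. It was 22, 48 and 3 without SAP97 control replicate 1, 2 or 3, beside 340, 798 and 195 of all genes. With a library left out, 14841 to 15325 genes were tested. The list count was 4 with the share of reads outside genes as a covariate, beside 279 of all genes. In the fit of 21 libraries it was 3, beside 273 of 16409 genes. The list median stayed between -0.60 and -0.32 in these fits. Messengers encoded in mitochondrial DNA, 13 in all, had a median of -0.08 and none at an unadjusted p under 0.05.

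Fatty acid oxidation, the main fuel pathway of the adult heart, leaned the same way, with 24 of 29 genes negative, 8 lower and 0 higher at an unadjusted p under 0.05 (3.28% and 4.69% of all genes), and a median of -0.28. Hadh, which oxidizes hydroxyacyl-CoA, was at 328, 338 and 310 CPM in SAP97 KO, against 442, 428 and 469 CPM in SAP97 control. Acadm, the medium-chain dehydrogenase, was at 673, 769 and 581 CPM in SAP97 KO, against 883, 868 and 1050.1 CPM in SAP97 control. For both the groups were separate. The count of 8 was 1 or 5 when SAP97 KO replicate 3 or 1 was left out, 2 or 3 when SAP97 control replicate 1 or 3 was, 3 in the fit of 21 libraries and 1 with the share of reads outside genes as a covariate. The median was -0.17 without SAP97 control replicate 1. Medians were -0.22 for 38 proteasome genes, -0.27 for 18 heat shock genes and -0.16 for 80 cytosolic ribosomal protein genes, with 5, 4 and 4 members lower and 0 higher at an unadjusted p under 0.05, which for the ribosomal genes is near the 3.28% of all genes. Leaving out SAP97 KO replicate 1 or 2 gave ribosomal medians of -0.03 and -0.37. The proteasome count was 0 without SAP97 KO replicate 3 or SAP97 control replicate 3, and 12 when SAP97 KO replicate 2 was left out, and the heat shock count was 1 with replicate 1 of SAP97 KO left out. In the sarcomere list, 3 of 30 genes were lower at that threshold, the ventricular light chain gene Myl2, the troponin I gene Tnni3 and the tropomyosin gene Tpm1, with log2 fold changes of -0.61, -0.56 and -0.43. That count was 7 without SAP97 KO replicate 2 and 0 without SAP97 control replicate 3, with the share of reads outside genes as a covariate or in the fit of 21 libraries. For all lists of this paragraph, the counts lower over all genes moved in the same fits, as given for the respiratory chain.

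**Figure D4:**
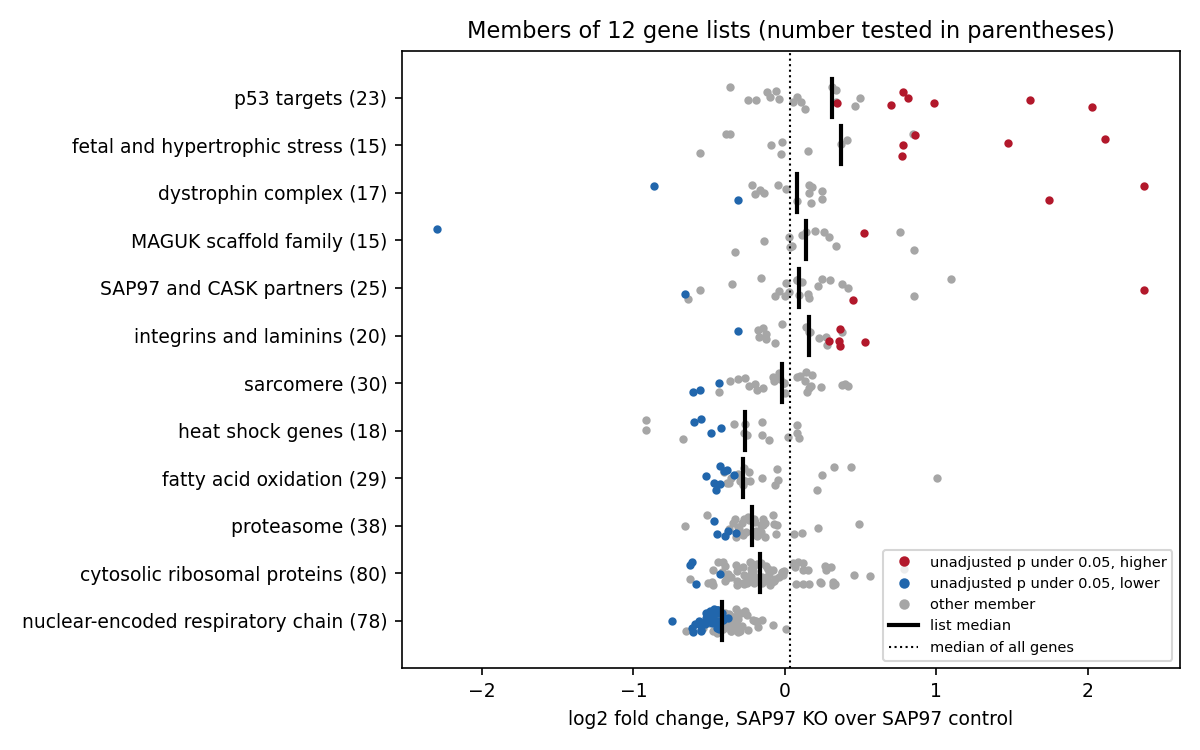
Log2 fold change of SAP97 KO over SAP97 control for each tested member of selected gene lists, 1 point a gene, red and blue where the unadjusted p was under 0.05 and grey otherwise, with the list median as a black bar and the median of all genes as a dotted line. The 78 respiratory chain genes cluster around a median of -0.42, while the p53 and stress lists spread to the right up to 2.12.

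Genes of the matrix and of attachment were mixed. Of 28 extracellular matrix genes, 3 were higher at an unadjusted p under 0.05, against 4.69% of all genes. The count was 6 when SAP97 KO replicate 2 was left out, and 2 when SAP97 KO replicate 3 or SAP97 control replicate 2 or 3 was. In the same order, these fits had 984, 369, 1609 and 340 of all genes higher, against 690 in the main fit. Without SAP97 KO replicate 3 the list median of 0.22 became -0.04, with 16 of the 28 genes negative. Among the 3 higher genes was Tgfb2, a growth factor of fibrosis. It was at 9.56, 7.04 and 5.36 CPM in SAP97 KO, against 3.50, 3.72 and 3.32 CPM in SAP97 control. Col1a1, the fibroblast collagen, was at 8.12, 6.93 and 26.1 CPM in SAP97 KO, against 7.19, 5.20 and 4.83 CPM in SAP97 control, so that 1 library set its mean. Fibroblast markers as a whole summed to 98.7 to 203 CPM in SAP97 KO, against 94.7 to 159 CPM in SAP97 control, and the sums of endothelial, mural and macrophage markers overlapped as well. Of 8 mural markers tested, 2 lay higher in every SAP97 KO library, Acta2 and Cspg4, and 0 lower, against 7.06% and 5.81% of all genes. The others overlapped, and 3 of the 8 had a negative log2 fold change. Acta2 was at 67.8, 88.2 and 49.2 CPM in SAP97 KO, against 43.3, 21.5 and 27.5 CPM in SAP97 control. Rgs5 was at 144, 81.4 and 136 CPM in SAP97 KO, against 148, 86.1 and 154 CPM in SAP97 control. The part of mural markers in the results was not tested. In bulk RNA a smaller number of cells of a type and less RNA per cell cannot be told apart. At an unadjusted p under 0.05, 5 of 20 integrin and laminin genes were higher, led by the fibronectin receptor subunit Itga5 at 0.53, against 4.69% of all genes. Just 1 was higher with a correction for exon length, in the fit of 21 libraries, and when SAP97 KO replicate 1 or SAP97 control replicate 1 or 3 was left out. Of all genes, 559, 537, 451, 492 and 340 were higher in these fits, in the same order. Of 20 serine, folate and integrated stress genes, 4 were higher and 1 lower at that threshold and 9 had a negative log2 fold change, with a list median of 0.29 that was -0.02 without SAP97 control replicate 2. Mthfd2 and Psat1 had the largest of its log2 fold changes, 1.20 and 1.30, at no more than 2.37 CPM in any library, and Ddit4 the lowest, -0.95.

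Changes were related to the exon length of genes. Genes were put in 10 bins of like size by exon length. In the bin of the shortest, up to 1002 bases, the median log2 fold change was -0.15, and in the bin of the longest, from 8928 bases, it was 0.13. At an unadjusted p under 0.05, 20 genes were higher and 106 lower among the shortest, and 127 higher and 17 lower among the longest. Across 14707 genes, which are not independent replicates, Spearman's correlation of log2 fold change with exon length was 0.210, and 0.104 with genomic span in 14664 genes. The slope of each library, taken from the deviation of log2(CPM + 0.5) from the gene mean against log2 exon length, was 0.09, -0.06 and 0.04 in SAP97 KO, against -0.03, 0.00 and -0.03 in SAP97 control. SAP97 KO replicate 2 thus ran opposite to the other knockouts, and the difference of the means, 0.04, did not exceed the spread (two-sided exact permutation test, p = 0.4, where 0.1 is the smallest that 3 against 3 allow). That difference was 0.01 or 0.08 when SAP97 KO replicate 1 or 2 was left out.

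The respiratory chain list consists of short genes, with a median exon length of 1423 bases. With an offset for exon length in each library, its median was -0.36, with 29 genes lower at an unadjusted p under 0.05, beside 547 of all genes. That of cytosolic ribosomal genes was -0.09 after the offset and that of p53 targets 0.27. The same 3 genes were called, Dlg1 and Ndnf among them.

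**Figure D5:**
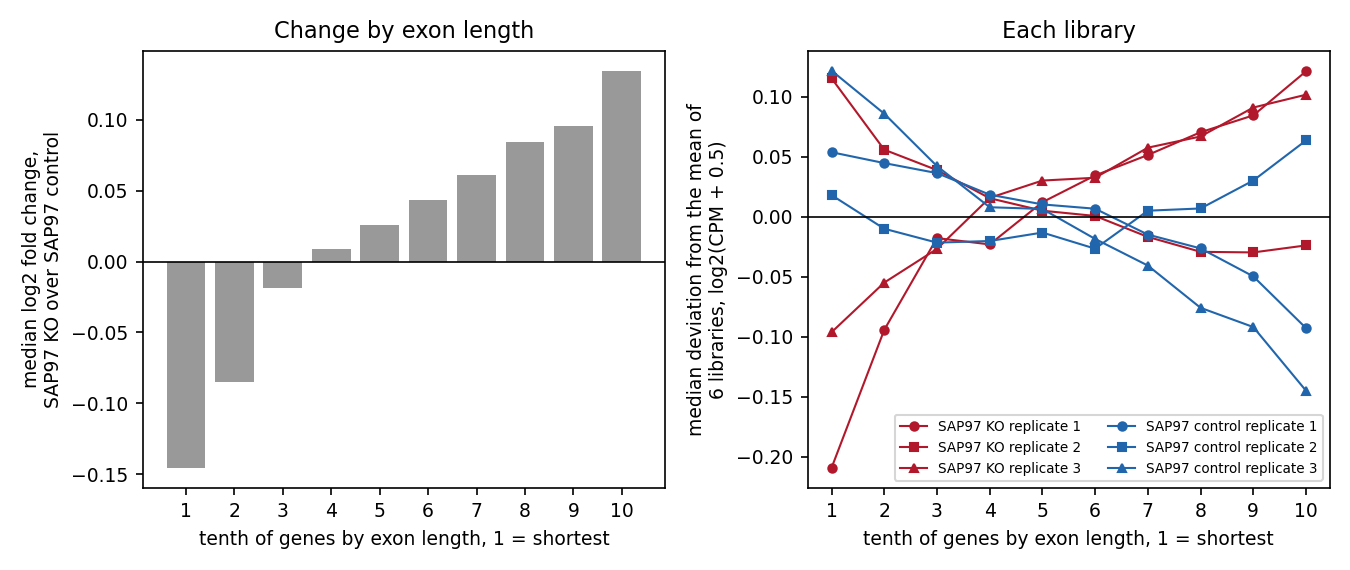
Left, median log2 fold change of SAP97 KO over SAP97 control in each of 10 bins of genes ordered by exon length, from -0.15 in the shortest to 0.13 in the longest. Right, the median deviation of each library from the mean of the 6 libraries in log2(CPM + 0.5) over the same bins, SAP97 KO in red and SAP97 control in blue. SAP97 KO replicate 2 falls toward long genes like SAP97 control replicates 1 and 3. SAP97 control replicate 2 varies little over the shorter genes and rises to 0.06 in the longest.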

How the data were processed

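RNA of ventricular cardiomyocytes of 6 mice was analysed, 3 SAP97 KO and 3 SAP97 control, grouped by sample title. The authors removed ribosomal reads, aligned the rest to GRCm38 and deposited counts, whole numbers of read pairs per gene, without scaling. The submitters' processing notes name Bowtie2 2.2.1, TopHat2 2.0.13 and HTSeq 0.6.1. Whether counting used strand is not given in the sources used here. The deposited tables also hold normalized counts, TPM and the authors' DESeq2 fold changes and p-values, which were not used. Exon lengths are the deposited summed lengths in base pairs.

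Counts were filtered with filterByExpr, scaled by TMM and tested with glmQLFTest in edgeR 4.0.16 (R 4.3.3) without covariates. The biological coefficient of variation was 0.236. The pipeline was tested on simulated data. P-values measure the spread between mice, and depth limits low genes by counting error. DESeq2 1.42.0 and limma 3.58.1 served as alternatives, with other scalings, filters, covariates, an exon-length offset (lowess span 0.3) and each library left out. Named are Dlg1, the called genes, the 15 genes of lowest p in each direction with a symbol and a mean of at least 1 CPM, up to 4 members of each list, any member of the stress, dystrophin, MAGUK, partner, channel and p53 lists, and cell markers that are near 0 or move with the groups. Lists and members were chosen with earlier results of these data known, and the comparison with the CASK line and wild type, fitted in edgeR over 21 libraries, was added after the data were seen. Of the genes the naming rule takes in, 1 called lower and some channel genes are not reported here, but all counts and medians include them. Coordinates are those of GENCODE on GRCm38, and promoters are from RefSeq.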

Additional observations from a re-analysis of the deposited data

How the results depend on the processing

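There were 20 alternative settings at the threshold of 0.01. In these the 3 called genes became 46 with DESeq2, 134 without a filter on low counts, 6 in 1 fit of 21 libraries and 1 with age as a covariate. Of the 134, 129 were genes tested in the main setting and 5 were genes that the filter removes, and the cause was not tested. At a threshold of 0.05 the main setting also called 3. Called members of the gene lists, 1 here, were 11 with DESeq2, 24 without a filter and 2 in the fit of 21 libraries. Over all genes, 0.259%, 0.486% and 0.0366% were called in these settings, against 0.0204% here. The member counts were not turned into shares of the members tested, so they say nothing about the lists. With 1 library left out, between 0 and 2 genes were called, and between 0 and 1 list members. Same-numbered mice did not vary together (correlations of 0.01, 0.10 and -0.35), and no label ties them to a shared litter or day, so the numbers were not taken as pairs, although same-numbered mice were within 0.1 weeks of age. With the replicate number as a block 0 genes and 0 list members were called by edgeR, with 571 higher and 260 lower at an unadjusted p under 0.05, and Dlg1 kept a log2 fold change of -2.29 (adjusted p = 0.0204). Leaving out 1 library, Dlg1 ran from -2.38 to -2.23 and was lost only without SAP97 KO replicate 3, at -2.30. No direction turned for any of the 30 named genes, which their choice by low p in these same libraries favours. The difference of mean slopes stayed positive in each alternative, from 0.01 to 0.08, including that with genomic span in place of exon length. Spearman's correlation across genes, 0.210, was positive as well. None of the 8 channels that SAP97 is known to bind was called under any setting. At 3 mice a group, differences within the spread of these libraries could not be detected.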
